A study of Mus musculus with 11 samples.

Results

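The immediate early transcription factor genes Fos, Fosb, Jun and Junb (AP-1), Egr1, Egr2 and Egr3 (EGR) and Nr4a1, Nr4a2 and Nr4a3 (NR4A) were followed over T cells from the lacrimal gland and spleen of the NOD mouse. These 10 genes of 17097 were taken by symbol, with all of their 18 probe sets of 45037. In NOD mice, an inbred strain used to model Sjögren's syndrome, lymphocytes infiltrate the lacrimal gland. RNA was measured on 11 arrays, all from male mice of 16 weeks. LG_eTreg and LG_eTconv, the effector regulatory and effector conventional CD4 T cells of the gland, and LG_naive, gland CD4 T cells without surface PD1 and ICOS, had 3 arrays each. Spl_CD4 and Spl_CD8, the total CD4 and total CD8 T cells of the spleens of those mice, had 1 array each. All gland subsets were live and positive for CD4 and the T cell receptor beta chain. The labels give LG_eTreg and LG_eTconv the same gate (PD1 and ICOS high, CD73 and CD200 low), so the sort text does not separate them; they spell the naive group LG_naïve.

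Per the labels, glands were broken up mechanically and digested with enzymes before the sort, which ran straight into lysis buffer. How the spleen suspensions were prepared is not described there. Tissue, preparation and sort gate therefore cannot be told apart in any comparison of a gland subset with a spleen array. The labels do not say whether the arrays of a group came from separate mice or pools, so the p-values below reflect only how much these samples varied, and that variation may be technical.

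Immediate early genes are transcribed within minutes of a signal, without new protein synthesis, and their transcripts are short-lived. In T cells, the T cell receptor induces them through MAP kinase and calcium signals: FOS and JUN proteins pair to form AP-1, EGR proteins bind GC-rich sites through zinc fingers, and NR4A proteins are orphan nuclear receptors that act without a known natural ligand. The same genes are also known to be induced in many cell types while a solid tissue is digested into single cells.

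T cell markers were detected in every group. None of the 9 measured, among them Cd4 and the Cd3 chains, was at background on all arrays of a group. The background limit is the highest nonspecific control probe set of an array. Detection does not exclude other cells, whose markers are given below. Foxp3, which defines regulatory T cells, averaged 8.18 ± 0.05 in LG_eTreg, 4.24 ± 0.62 in LG_eTconv and 3.95 ± 1.05 in LG_naive (log2 signal, SD, n = 3 each). Replicate arrays of a group correlated at 0.980 to 0.991 over all genes. On 3 arrays a control probe set stood apart: the 18S ribosomal RNA control read 6.76 on LG_eTreg 3 and 6.15 on LG_naive 1, and on LG_eTconv 1 the actin control at the 3′ end exceeded the one at the 5′ end by 3.35, a measure of RNA integrity. Each result below that these 3 arrays decide is given without them. The same measure on the Gapdh control was highest on Spl_CD4, at 3.52, with LG_naive 3 at 3.35 and LG_eTconv 1 at 3.24. Every comparison with Spl_CD4 rests on that 1 array.

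Promoter sequences are shown for Nr4a2 and Jun, whose signal differed from LG_naive in both effector subsets, and for Fos, whose signal stood far above the spleen array in all gland subsets with no call between those subsets. Each is the stretch of 250 bases before the annotated start, 5′ to 3′ on the gene's strand, from RefSeq on GRCm38.p6, where 8 of the 10 genes matched. Nr4a2 is at chr2:57124004-57124253 (minus strand), Jun at chr4:95052223-95052472 (minus strand) and Fos at chr12:85473640-85473889 (plus strand). Capitals mark TGACG, the core of the cyclic AMP response element, and TGACATCA, an AP-1 and ATF site first known from the Jun promoter, on either strand; the motifs share their opening letters but cannot match at the same place.
Nr4a2: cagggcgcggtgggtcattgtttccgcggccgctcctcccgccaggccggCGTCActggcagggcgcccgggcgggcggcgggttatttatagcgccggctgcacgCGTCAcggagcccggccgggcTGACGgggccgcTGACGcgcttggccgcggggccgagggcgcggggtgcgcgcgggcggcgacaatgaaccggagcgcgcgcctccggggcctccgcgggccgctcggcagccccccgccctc
Jun: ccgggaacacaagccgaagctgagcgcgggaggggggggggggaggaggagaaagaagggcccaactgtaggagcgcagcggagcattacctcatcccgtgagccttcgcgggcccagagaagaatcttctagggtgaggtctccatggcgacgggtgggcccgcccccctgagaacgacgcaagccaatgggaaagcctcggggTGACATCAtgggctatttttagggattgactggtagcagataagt
Fos: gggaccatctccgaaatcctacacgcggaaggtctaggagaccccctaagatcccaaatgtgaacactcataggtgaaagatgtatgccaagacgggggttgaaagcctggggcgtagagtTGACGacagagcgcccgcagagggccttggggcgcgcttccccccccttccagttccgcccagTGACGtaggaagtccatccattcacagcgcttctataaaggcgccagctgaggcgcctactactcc
The TGACG core occurred 4 times before Nr4a2, 2 times before Fos and 0 times before Jun, which held 1 TGACATCA. TGACG was present in 17.77% of 32851 RefSeq windows of this length, and 3 or more matches in 0.69%. TGACATCA was present in 2.93%. Nr4a1 and Nr4a3 also held 4 TGACG matches each, and Fosb and Junb 1 each. Egr2, with several annotated starts, held 0 or 2 depending on the start. These are letter matches and were not tested for binding.

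Within the lacrimal gland, the clearest difference among the 10 genes was in Nr4a2, whose signal rose about 3-fold in both effector subsets relative to LG_naive. Jun fell in both effector subsets, and Egr1 fell in LG_eTconv but gave no call in LG_eTreg. The AP-1 genes Fos, Fosb and Junb and the NR4A genes Nr4a1 and Nr4a3 gave no call in any gland comparison. Relative to LG_naive, 1 of 10 genes was called higher and 2 lower in LG_eTconv, where 13.5% of all 17097 genes were called, 6.45% higher and 7.02% lower. In LG_eTreg, 1 was higher and 1 lower, where 11.7% of all genes were called, 6.2% higher and 5.47% lower. Relative to LG_eTconv, 1 gene was higher and 0 were lower in LG_eTreg, where 5.7% of all genes were called, 2.94% higher and 2.76% lower. Calls rest on limma, with p-values adjusted by Benjamini-Hochberg over every gene of the table and a threshold of 0.05. The comparisons with LG_naive share the LG_naive arrays. The median log2 difference of the 10 genes was -0.06 in LG_eTconv minus LG_naive (-0.03 over all genes), -0.02 in LG_eTreg minus LG_naive (-0.02) and -0.01 in LG_eTreg minus LG_eTconv (0.01). Groups did not overlap for 6 of the 10 genes in LG_eTconv minus LG_naive, where 31.1% of all genes did not, for 3 in LG_eTreg minus LG_naive, where 27.1% did not, and for 4 in LG_eTreg minus LG_eTconv, where 21.5% did not.

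**Figure D1:**
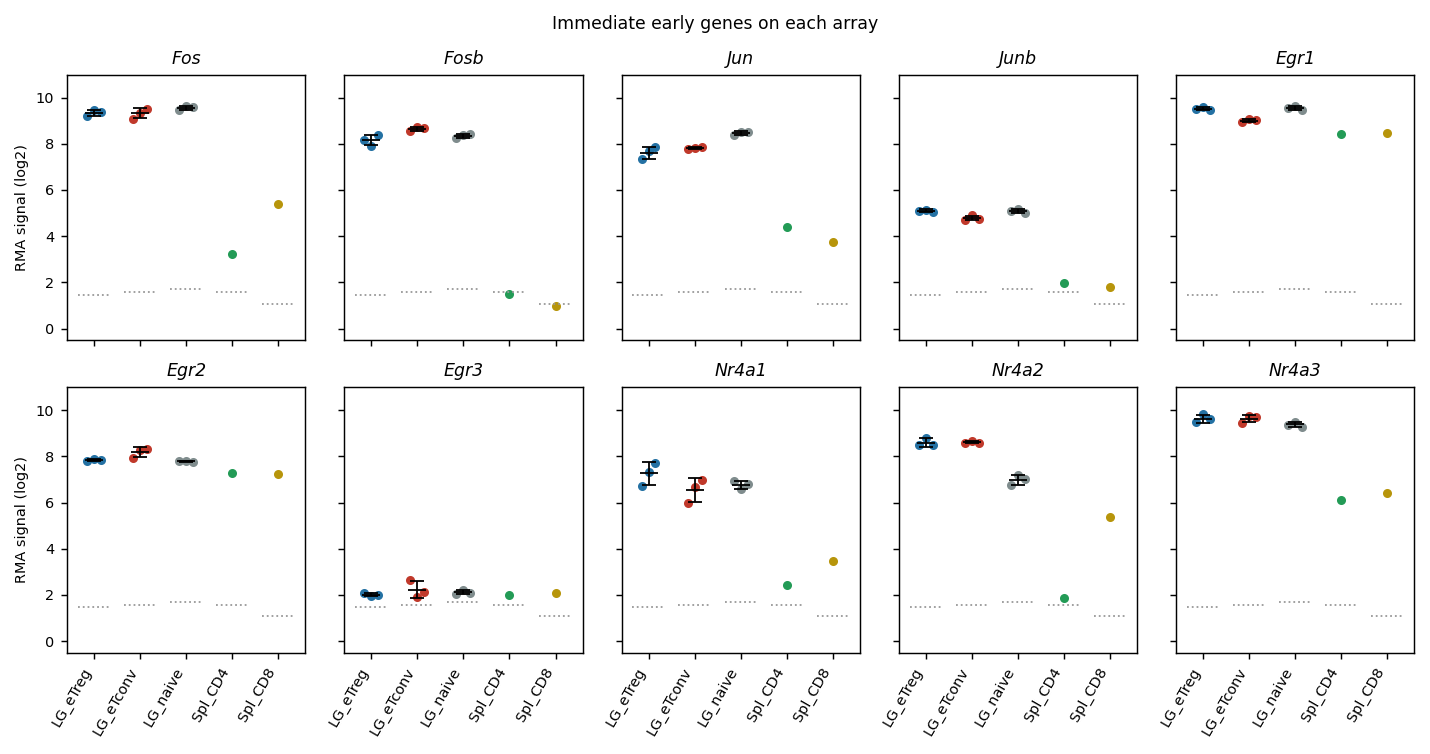
RMA signal (log2) of the 10 genes on each of the 11 arrays, by group, for the probe set that was brightest on average on the gland arrays. Points are arrays, black marks the mean with SD of 3 arrays, and dotted lines the highest background limit of the group's arrays. Fos, Fosb, Jun, Junb and the NR4A genes are higher on the 9 gland arrays than on either spleen array, Egr1 and Egr2 are high on all 11, and Egr3 is low on all 11.

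**Figure D2:**
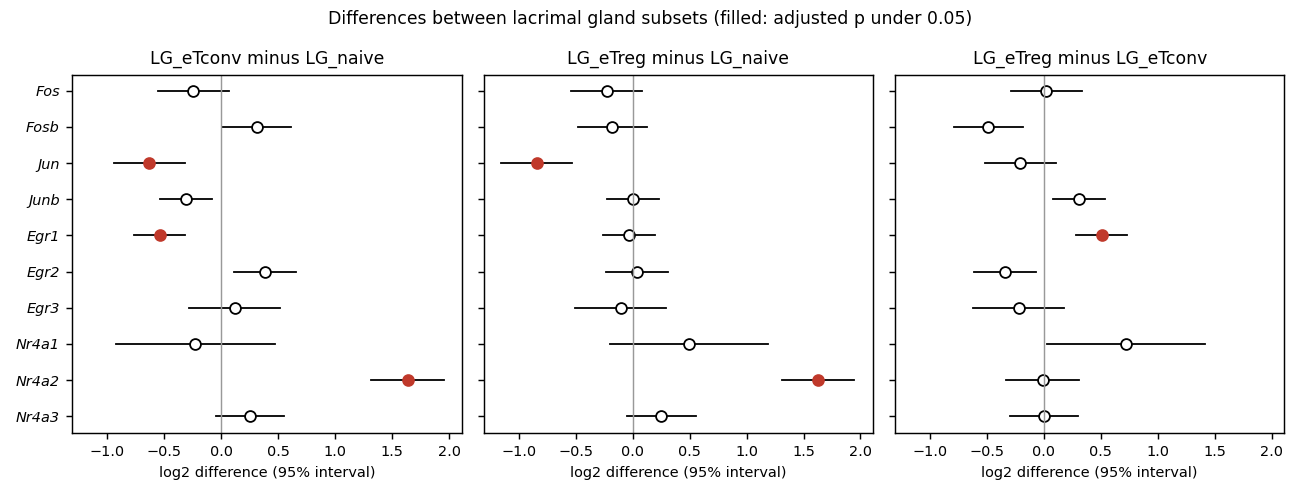
Log2 difference of each gene with its 95% interval in the 3 gland comparisons, where filled points are called (adjusted p under 0.05, limma). Nr4a2 lies to the right of 0 and Jun to the left in both comparisons with LG_naive, and Egr1 is the one gene called between LG_eTreg and LG_eTconv.

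Fos, the founding AP-1 subunit, read 9.18, 9.46 and 9.37 in LG_eTreg, 9.09, 9.34 and 9.52 in LG_eTconv and 9.47, 9.65 and 9.58 in LG_naive, against 3.22 on Spl_CD4 and 5.41 on Spl_CD8 (log2 signal per array). All 9 gland arrays lay between 9.09 and 9.65, far above both spleen arrays. The Fos difference from LG_naive was -0.25 in LG_eTconv (95% interval -0.56 to 0.06, adjusted p = 0.320, limma) and -0.23 in LG_eTreg (-0.54 to 0.09, adjusted p = 0.393, limma).

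Fosb, a close relative of Fos, read 8.18, 7.92 and 8.39 in LG_eTreg, 8.56, 8.71 and 8.68 in LG_eTconv and 8.23, 8.36 and 8.43 in LG_naive, against 1.51 on Spl_CD4 and 0.99 on Spl_CD8. Both spleen arrays were below their background limit. The LG_eTreg and LG_eTconv arrays did not overlap, and the difference of -0.49 between them missed the threshold (adjusted p = 0.0826, limma). It was called without LG_eTreg 3 (adjusted p = 0.0448, limma).

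Jun, the main dimer partner of Fos, read 7.34, 7.67 and 7.85 in LG_eTreg, 7.80, 7.81 and 7.87 in LG_eTconv and 8.37, 8.49 and 8.52 in LG_naive, against 4.39 on Spl_CD4 and 3.76 on Spl_CD8. Every effector array lay below every LG_naive array and above both spleen arrays. Jun fell by 0.84 in LG_eTreg relative to LG_naive (SE 0.14, adjusted p = 0.00451, limma). It fell by 0.63 in LG_eTconv (SE 0.14, adjusted p = 0.0159, limma), a call that was lost without LG_eTconv 1, LG_eTconv 2, LG_naive 2 or LG_naive 3 (adjusted p of 0.0528, 0.0547, 0.0538 and 0.0587, limma), while the differences stayed between -0.63 and -0.60. The other Jun probe set gave larger falls, of 1.20 in LG_eTconv and 1.29 in LG_eTreg (adjusted p over all probe sets 0.0143 and 0.0118, limma).

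Junb, a JUN protein that can oppose JUN at some targets, read 5.09, 5.15 and 5.03 in LG_eTreg, 4.70, 4.90 and 4.75 in LG_eTconv and 5.07, 5.19 and 5.01 in LG_naive, against 1.98 on Spl_CD4 and 1.80 on Spl_CD8. LG_eTconv lay below both other gland subsets on every array. The differences were -0.31 from LG_naive (adjusted p = 0.0837, limma) and 0.31 for LG_eTreg minus LG_eTconv (adjusted p = 0.144, limma), neither of them called. With every signal below the highest background limit raised to it, the difference of -0.31 from LG_naive was called (adjusted p = 0.0368, limma).

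Egr1, the founding EGR factor, read 9.49, 9.60 and 9.46 in LG_eTreg, 8.93, 9.07 and 9.03 in LG_eTconv and 9.56, 9.65 and 9.45 in LG_naive, against 8.44 on Spl_CD4 and 8.46 on Spl_CD8. LG_eTconv was the lowest gland subset on all 3 of its arrays, and LG_eTreg and LG_naive overlapped. Egr1 rose by 0.51 in LG_eTreg relative to LG_eTconv (SE 0.10, adjusted p = 0.0196, limma). It fell by 0.54 in LG_eTconv relative to LG_naive (SE 0.10, adjusted p = 0.00704, limma), and its difference in LG_eTreg minus LG_naive was -0.03 (95% interval -0.26 to 0.19). The LG_eTreg call over LG_eTconv was lost when any 1 of LG_eTconv 1, 2 or 3 or LG_eTreg 1 or 2 was left out (adjusted p 0.0510 to 0.0724, limma), with differences of 0.47 to 0.54. Both Egr1 calls were lost without the 3 arrays with control probe sets apart (adjusted p = 0.131 between the effector subsets and 0.0706 against LG_naive, limma), while the differences stayed at 0.50 in LG_eTreg minus LG_eTconv and -0.50 in LG_eTconv minus LG_naive.

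Egr2, which with EGR3 restrains T cell activation and takes part in anergy, read 7.81, 7.87 and 7.84 in LG_eTreg, 7.94, 8.28 and 8.33 in LG_eTconv and 7.80, 7.82 and 7.78 in LG_naive, against 7.28 on Spl_CD4 and 7.23 on Spl_CD8. LG_eTconv was the highest group on every array. Its difference from LG_naive was 0.39 (adjusted p = 0.0715, limma) and that of LG_eTreg minus LG_eTconv -0.35 (adjusted p = 0.174, limma). Both were called without LG_eTconv 1 (0.51 and -0.47, adjusted p of 0.0136 and 0.0381, limma). Egr3 read 2.08, 1.94 and 2.0 in LG_eTreg, 2.64, 1.93 and 2.12 in LG_eTconv and 2.05, 2.22 and 2.06 in LG_naive, against 2.01 on Spl_CD4 and 2.07 on Spl_CD8. All 5 groups of Egr3 overlapped or lay close together, little above the background limit.

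Nr4a1 (NUR77), widely used as a reporter of T cell receptor signal strength, read 6.74, 7.34 and 7.72 in LG_eTreg, 5.99, 6.66 and 6.97 in LG_eTconv and 6.94, 6.57 and 6.80 in LG_naive, against 2.42 on Spl_CD4 and 3.45 on Spl_CD8. The gland subsets overlapped, and the lowest and highest values were on LG_eTconv 1 and LG_eTreg 3, both among the 3 arrays with a control probe set apart. None of its gland differences was called: -0.23 in LG_eTconv minus LG_naive (95% interval -0.92 to 0.47), 0.50 in LG_eTreg minus LG_naive (-0.20 to 1.19) and 0.72 in LG_eTreg minus LG_eTconv (0.03 to 1.42, adjusted p = 0.283, limma). Without those 3 arrays the differences were 0.22 in LG_eTreg minus LG_eTconv and 0.13 in LG_eTconv minus LG_naive, the second with its sign turned, and without LG_eTconv 1 alone 0.45 and 0.05. The intervals over all arrays are wide, so differences of that size were not resolved by 3 arrays a group.

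Nr4a2 (NURR1) read 8.50, 8.81 and 8.49 in LG_eTreg, 8.58, 8.66 and 8.59 in LG_eTconv and 6.75, 7.17 and 7.0 in LG_naive, against 1.86 on Spl_CD4 and 5.38 on Spl_CD8. All 6 effector arrays lay above all LG_naive arrays, which in turn lay above both spleen arrays. Nr4a2 rose by 1.64 in LG_eTconv relative to LG_naive (3.11-fold, SE 0.14, adjusted p = 0.000104, limma). It rose by 1.63 in LG_eTreg (3.09-fold, SE 0.14, adjusted p = 0.00013, limma), and the effector subsets differed by -0.01 (LG_eTreg minus LG_eTconv, 95% interval -0.33 to 0.31). Both rises were called under all 19 alternative settings, between 1.52 and 1.79 in LG_eTconv and between 1.51 and 1.73 in LG_eTreg.

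The 5 probe sets of Nr4a2 did not all show this. Probe set 1450750_PM_a_at read 7.48, 7.75 and 7.30 in LG_eTreg, 7.54, 7.70 and 7.51 in LG_eTconv and 2.22, 4.04 and 4.75 in LG_naive, and was below background on both spleen arrays. Its differences from LG_naive were 3.92 in LG_eTconv and 3.84 in LG_eTreg (adjusted p over all probe sets 0.00286 and 0.00379, limma). Probe set 1450749_PM_a_at gave 2.96 and 2.76 in the same comparisons (adjusted p over all probe sets 0.0013 and 0.0022, limma). The remaining probe sets, 1433422_PM_at and 1433423_PM_at, were dim in every group and gave no call. The 3 bright probe sets thus ordered the gland subsets alike and differed in the size of the step.

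**Figure D3:**
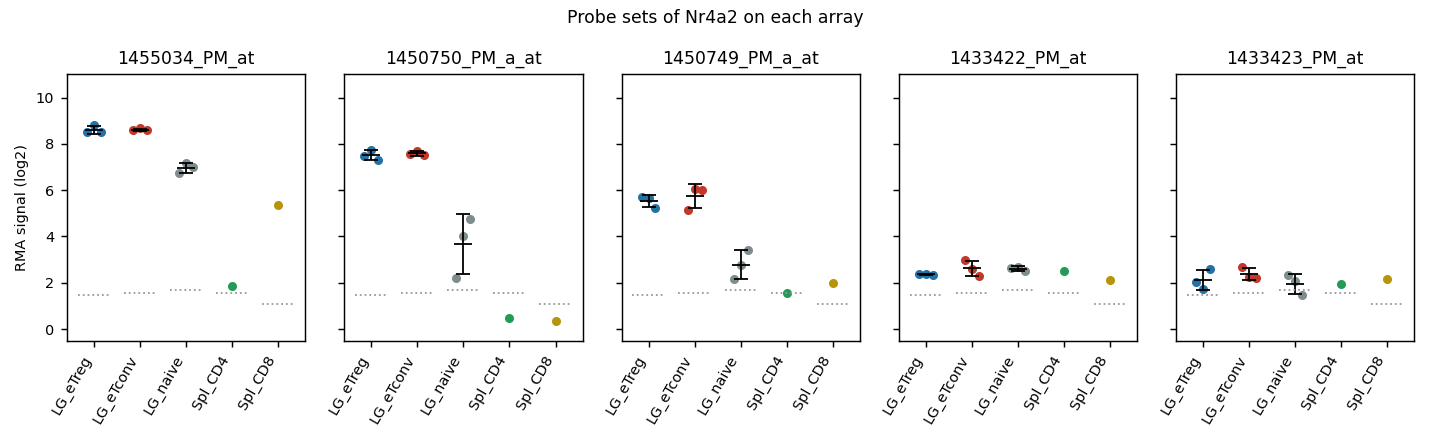
RMA signal (log2) of the 5 Nr4a2 probe sets on each array, by group, with mean and SD of 3 arrays in black and the highest background limit of the group's arrays dotted. The first 3 panels show the effector arrays above the LG_naive arrays, and the last 2 panels stay between 1.48 and 2.97 on all arrays.

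Nr4a3 (NOR1) read 9.48, 9.82 and 9.61 in LG_eTreg, 9.46, 9.77 and 9.70 in LG_eTconv and 9.38, 9.50 and 9.28 in LG_naive, against 6.13 on Spl_CD4 and 6.41 on Spl_CD8. The gland subsets overlapped, with differences from LG_naive of 0.25 in both effector subsets (adjusted p = 0.289 and 0.312, limma). The other 2 probe sets of Nr4a3 were below the background limit on all 11 arrays.

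Against the spleen, most of these genes were higher in every gland subset, LG_naive included. With a log2 difference of at least 1 and all 3 arrays above the Spl_CD4 array, 7 of 10 genes were higher in LG_eTconv, where 6.56% of all genes were, and 8 of 10 in LG_eTreg, where 6.44% of all genes were. In LG_naive 8 of 10 were higher, where 4.67% of all genes were. By the same rule 0 of the 10 were lower in LG_eTconv (6.62% of all genes), in LG_eTreg (5.98%) or in LG_naive (4.57%). The median log2 difference of the 10 genes was 3.48 in LG_eTconv, 3.37 in LG_eTreg and 3.66 in LG_naive, beside medians over all genes between -0.02 and 0.00. With 1 spleen array there is no test and no spread for the spleen, and the 3 comparisons share that array.

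Fosb was at least 136-fold higher in LG_eTconv, at least 97.2-fold in LG_eTreg and at least 110-fold in LG_naive than on Spl_CD4, counted from the background limit of the spleen array. Fos was higher by 6.10 in LG_eTconv (rank 6), 6.12 in LG_eTreg (rank 3) and 6.35 in LG_naive (rank 3) on the log2 scale. Ranks here are by difference from Spl_CD4 among the 9129, 9140 and 8974 genes above the background limit on the Spl_CD4 array and on all 3 arrays of LG_eTconv, of LG_eTreg and of LG_naive. Nr4a2 was higher by 6.75 in LG_eTconv (rank 1), 6.74 in LG_eTreg (rank 1) and 5.11 in LG_naive (rank 8). On Spl_CD4 it read 1.86, little above the limit of 1.56 there, so these differences and ranks rest on a dim value. Fosb, below that limit, was not ranked. The size of the Nr4a2 difference depended on the probe set. Probe set 1450749_PM_a_at gave 4.16 in LG_eTconv, 3.96 in LG_eTreg and 1.20 in LG_naive. Probe set 1450750_PM_a_at, below background on Spl_CD4, gave 7.10 in LG_eTconv, 7.02 in LG_eTreg and 3.18 in LG_naive. The dim probe sets 1433422_PM_at and 1433423_PM_at lay between -0.13 and 0.41. The NR4A gene Nr4a1 was higher by 4.12 in LG_eTconv, 4.85 in LG_eTreg and 4.35 in LG_naive, and Nr4a3 by 3.51 in LG_eTconv, 3.51 in LG_eTreg and 3.26 in LG_naive. Of the JUN genes, Jun was higher by 3.44 in LG_eTconv, 3.23 in LG_eTreg and 4.07 in LG_naive, and Junb by 2.80 in LG_eTconv, 3.11 in LG_eTreg and 3.11 in LG_naive. Junb read 1.98 on Spl_CD4, also near the limit.

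The EGR genes showed little of this difference. Egr1 was above Spl_CD4 by 0.57 in LG_eTconv, 1.08 in LG_eTreg and 1.11 in LG_naive, and Egr2 by 0.90 in LG_eTconv, 0.56 in LG_eTreg and 0.52 in LG_naive. Egr3 differed by 0.22 in LG_eTconv, -0.01 in LG_eTreg and 0.10 in LG_naive. On the spleen arrays themselves, Egr1 and Egr2 were well above background, at 8.44 and 7.28 on Spl_CD4. The second Egr2 probe set gave 0.86 in LG_eTconv, 0.68 in LG_eTreg and 0.59 in LG_naive.

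**Figure D4:**
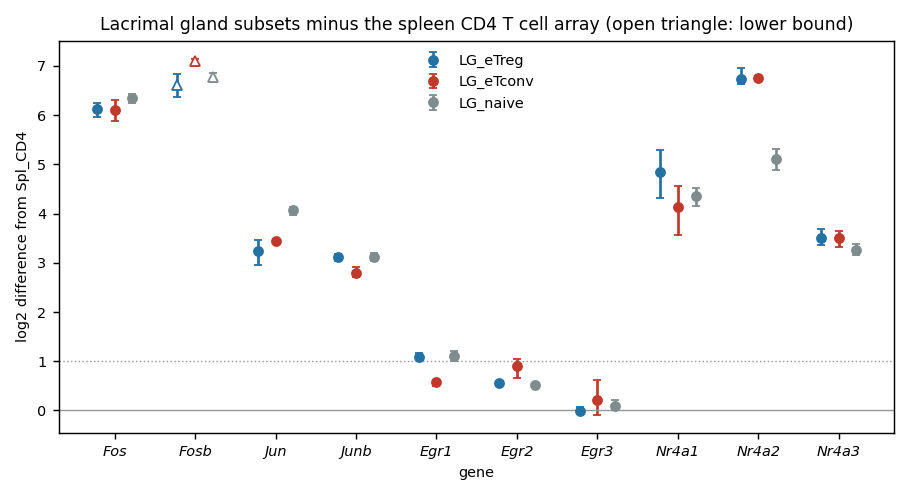
Log2 difference of each gland subset from the Spl_CD4 array for the 10 genes, as the mean of 3 arrays with bars from the lowest to the highest array. The solid line is 0 and the dotted line a difference of 1. Open triangles give Fosb, below background on Spl_CD4, as a lower bound between 6.60 and 7.09. Fos and Nr4a2 lie between 5.11 and 6.75, Egr3 near 0, and the gland subsets lie close together except for Nr4a2, Jun and Nr4a1.

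Against Spl_CD8, 7 of 10 were higher in LG_eTconv (7.67% of all genes), 8 in LG_eTreg (7.69%) and 8 in LG_naive (6.11%). By the probe set used for each gene, the spleen arrays differed most in Nr4a2 and Fos, which read 1.86 and 3.22 on Spl_CD4 but 5.38 and 5.41 on Spl_CD8. Nr4a2 probe set 1450749_PM_a_at did not share this step, at 1.57 on Spl_CD4 and 1.97 on Spl_CD8, and 1450750_PM_a_at was below background on both. The other Jun probe set read 3.14 on Spl_CD4 and was below background on Spl_CD8. By the probe sets used for Nr4a2 and Fos, LG_naive therefore stood 1.60 above Spl_CD8 in Nr4a2 and 4.15 above it in Fos, less than above Spl_CD4.

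Some other members of the AP-1 and small Maf families were also higher than on the spleen array. Of 12 measured, 6 were higher and 1 lower than Spl_CD4 in LG_eTconv (median 1.06, beside 6.56% and 6.62% of all genes). In LG_eTreg 7 were higher and 1 lower (median 1.56, beside 6.44% and 5.98%). In LG_naive 4 were higher and 3 lower (median 0.38, beside 4.67% and 4.57%). Named after their values were seen, the stress-induced Atf3 was at least 18.4-fold higher in LG_eTconv, at least 12.5-fold in LG_eTreg and at least 16.0-fold in LG_naive, counted from the background limit of the spleen array. Fosl2, a FOS relative, was higher by 4.93 in LG_eTconv, 5.15 in LG_eTreg and 4.74 in LG_naive. Jund, a JUN protein gene with steady expression in many cells, was higher by 0.57 in LG_eTconv, 0.72 in LG_eTreg and 0.59 in LG_naive. Relative to LG_naive, 3 of the 12 rose and 1 fell in LG_eTconv (6.45% and 7.02% of all genes), and 4 rose and 2 fell in LG_eTreg (6.2% and 5.47%). Maf (c-MAF, a regulator of IL-21 and IL-10) rose by 3.30 in LG_eTconv and 3.66 in LG_eTreg (adjusted p of 6.37e-05 and 4.7e-05, limma), and Jdp2, an AP-1 repressor, by 2.70 and 3.68 (adjusted p of 0.000223 and 5.29e-05, limma). Jdp2 was not above background on 2 of 3 LG_naive arrays, and with those raised to their limit the differences were 2.40 in LG_eTconv and 3.38 in LG_eTreg. Of the genes that fell, Mafk differed by -1.05 in LG_eTconv and Maff by -1.08 in LG_eTreg (adjusted p of 0.00307 and 0.0131, limma).

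Among 17 partners and upstream factors, 3 rose and 4 fell in LG_eTconv relative to LG_naive (6.45% and 7.02% of all genes). In LG_eTreg 4 rose and 0 fell (6.2% and 5.47% of all genes). Nfatc1, the calcium-regulated partner of AP-1, rose by 2.33 in LG_eTconv and 1.94 in LG_eTreg, and Elk3, a factor of the serum response element, by 1.71 and 1.58 (adjusted p up to 0.00103, limma). Among those that fell in LG_eTconv, Mrtfa differed by -1.13 and Mef2a by -1.06 (adjusted p of 0.0446 and 0.00406, limma). Nab1, a corepressor of EGR proteins, rose by 1.09 in LG_eTreg relative to LG_eTconv (adjusted p = 0.0262, limma). Against Spl_CD4, 2 were higher in LG_eTconv (6.56% of all genes), 2 in LG_eTreg (6.44%) and 0 in LG_naive (4.67%), counts near those shares.

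The feedback inhibitors of MAP kinase and NF-kappaB signals, which immediate early signals also induce, had many calls between the gland subsets. Of 14 measured, 11 rose and 1 fell in LG_eTconv relative to LG_naive (median 0.95, beside 6.45% and 7.02% of all genes). In LG_eTreg 5 rose and 1 fell (median 0.41, beside 6.2% and 5.47%). Spry1, an inhibitor of receptor signals to RAS, rose by 5.58 in LG_eTconv and 4.55 in LG_eTreg, and the phosphatase gene Dusp4 by 4.48 and 4.37 (adjusted p up to 5.05e-05, limma). Dusp10, a phosphatase of stress kinases, fell, with differences of -1.94 in LG_eTconv and -2.17 in LG_eTreg. Relative to LG_eTconv, 0 rose and 4 fell in LG_eTreg (2.94% and 2.76% of all genes). Among those that fell were the calcineurin inhibitor Rcan1 by 1.56 and Dusp6 by 1.03 (adjusted p of 0.016 and 0.0048, limma).

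Most genes of a list that T cell receptor signals induce, leaving out the 10, rose in both effector subsets. Nfatc1, named above among the partners, is in this list too. Of 26 measured, 15 rose and 2 fell in LG_eTconv relative to LG_naive (median 1.24, beside 6.45% and 7.02% of all genes). In LG_eTreg 14 rose and 3 fell (median 0.93, beside 6.2% and 5.47%). The cytokine gene Il21 rose by 7.40 in LG_eTconv and 4.50 in LG_eTreg, Ifng by 4.93 and 4.31, and Il2 by 5.05 in LG_eTconv, with 1.46 ± 0.48 in LG_eTreg, 6.53 ± 0.01 in LG_eTconv and 1.47 ± 0.86 in LG_naive (log2 signal, SD, n = 3 each). Il21 and Il2 were each not above background on 2 of 3 LG_naive arrays, and with those raised to their limit Il21 differed by 7.06 in LG_eTconv and 4.16 in LG_eTreg and Il2 by 4.76 in LG_eTconv. Against Spl_CD4, 20 were higher and 1 lower in LG_eTconv (median 2.54, beside 6.56% and 6.62% of all genes). In LG_eTreg 18 were higher and 0 lower (median 1.94, beside 6.44% and 5.98%). In LG_naive 10 were higher and 3 lower (median 0.69, beside 4.67% and 4.57%).

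Some other early response genes known from tissue dissociation were also higher in the gland subsets than on Spl_CD4. As chosen, this list shares Atf3 and Jund with the AP-1 and small Maf list. It shares Dusp1, Nfkbia and Nfkbiz with the feedback inhibitors, so the counts of these lists are not independent. Of 24 measured, 14 were higher and 2 lower in LG_eTconv (median 1.60, beside 6.56% and 6.62% of all genes). In LG_eTreg 13 were higher and 2 lower (median 1.21, beside 6.44% and 5.98%). In LG_naive 15 were higher and 1 lower (median 1.90, beside 4.67% and 4.57%). Among them, named after their values were seen, the eIF2 phosphatase subunit gene Ppp1r15a was higher by 3.64 in LG_eTconv, 3.89 in LG_eTreg and 4.61 in LG_naive. Of 11 heat shock genes, 3 were higher in LG_eTconv (median 0.42, beside 6.56% of all genes), 3 in LG_eTreg (median 0.72, 6.44%) and 5 in LG_naive (median 0.88, 4.67%). The inducible chaperone gene Hspa1b, also named after its values were seen, was higher by 3.95 in LG_eTconv, 4.44 in LG_eTreg and 4.49 in LG_naive, and the constitutive Hspa8 differed by 0.04 in LG_eTconv, 0.12 in LG_eTreg and 0.08 in LG_naive. A setting chosen after the data were seen raised every signal below its array's limit to that limit. Against Spl_CD4, the medians of the lists outside the cell type markers then moved by up to 0.24 and their counts by up to 1 gene. Medians of the cell type marker lists described below moved by up to 0.49, and their counts by up to 3 genes. Within the gland, 5 of the 24 dissociation genes rose and 6 fell in LG_eTconv relative to LG_naive (median -0.32, beside 6.45% and 7.02% of all genes). In LG_eTreg 3 rose and 5 fell (median -0.21, beside 6.2% and 5.47%). Klf2, which T cells also lose on activation, fell, with differences of -3.33 in LG_eTconv and -3.44 in LG_eTreg, as did the metallothionein gene Mt1 at -1.71 and -1.27 (adjusted p up to 0.0157, limma). Of those that rose, Nfkbia differed by 1.36 in LG_eTconv and Gadd45b by 1.61 in LG_eTreg (adjusted p of 0.000376 and 0.00218, limma). Whether signals in the tissue or the preparation of the gland set the levels of the 10 genes was not tested, since the gland subsets shared 1 preparation and the spleen arrays have none described.

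**Figure D5:**
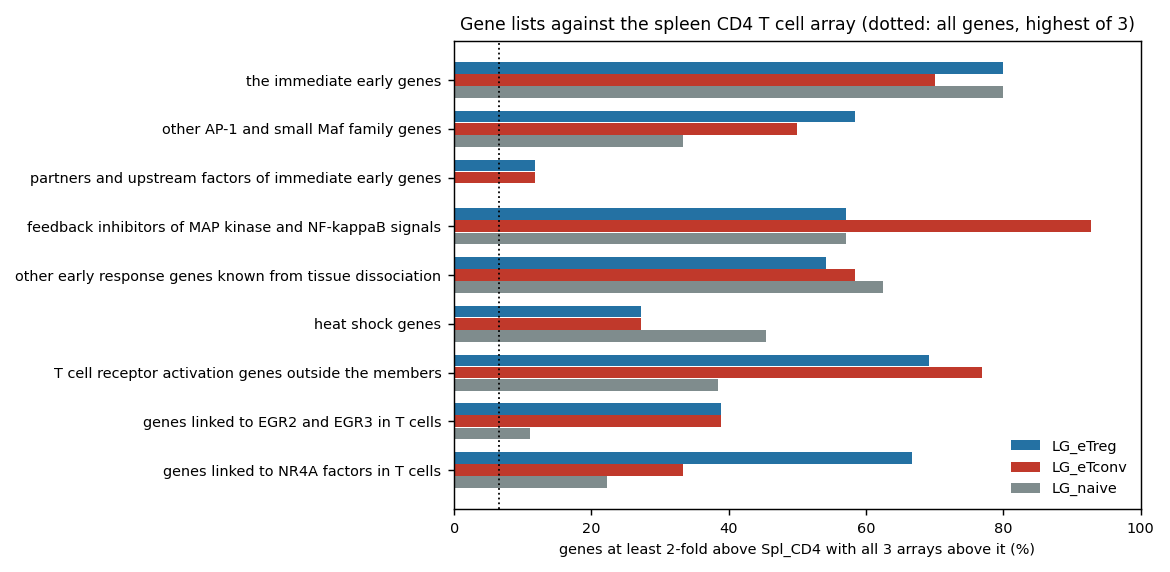
Share of the genes of each list (%) that were at least 2-fold above Spl_CD4 with all 3 arrays above it, for LG_eTreg, LG_eTconv and LG_naive. The dotted line marks 6.56%, the highest of the shares over all genes. The immediate early genes reach 7 or 8 of 10 in every gland subset, while the T cell receptor activation genes and the feedback inhibitors are highest in LG_eTconv.

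Markers of other cell types moved with some of these results, and their part in them was not tested. Levels are linear signals summed over a list. Beside the marker counts stand the shares of all genes. Relative to LG_naive, 6.45% were called higher and 7.02% lower in LG_eTconv, and 6.2% and 5.47% in LG_eTreg. Against Spl_CD4, 6.56% were higher and 6.62% lower in LG_eTconv, 6.44% and 5.98% in LG_eTreg, and 4.67% and 4.57% in LG_naive. The 18 lacrimal gland epithelium markers summed to 879.4 to 1053.9 in LG_eTreg, 671.0 to 849.6 in LG_eTconv and 1123.4 to 1768.9 in LG_naive, against 105.4 on Spl_CD4 and 93.1 on Spl_CD8. Relative to Spl_CD4, 5 of the 18 were higher and 1 lower in LG_eTconv (median 0.27), 7 and 1 in LG_eTreg (0.54) and 9 and 0 in LG_naive (0.91). The larger sums on gland arrays thus came from part of the list. Of the 18, 1 was called higher and 6 lower in LG_eTconv relative to LG_naive, and 1 higher and 4 lower in LG_eTreg, and Krt19, Cldn3, Cldn4 and Elf3 were at background in all groups. The 15 monocyte and macrophage markers summed to 741.8 to 878.2 in LG_eTreg, 678.0 to 702.5 in LG_eTconv and 1047.0 to 1334.4 in LG_naive, against 998.9 on Spl_CD4. Of these, 0 were higher and 8 lower in LG_eTconv, and 1 higher and 6 lower in LG_eTreg, while Csf1r and Itgam were at background in all gland subsets. The 11 dendritic cell markers summed to 239.2 to 281.1 in LG_eTreg, 216.7 to 291.8 in LG_eTconv and 979.4 to 1295.6 in LG_naive, against 842.1 on Spl_CD4, with 9 lower in each effector subset and 1 higher in LG_eTreg. Jun was lower and Nr4a2 higher in both effector subsets, where these sums were lower, while Egr1 was lower in LG_eTconv but differed by -0.03 in LG_eTreg.

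The 10 B and plasma cell markers summed to 97.7 to 177.3 in LG_eTreg, 188.0 to 281.8 in LG_eTconv and 327.3 to 395.6 in LG_naive, against 753.3 on Spl_CD4 and 1300.5 on Spl_CD8. Relative to LG_naive, 0 were called higher and 5 lower in LG_eTreg and none of the 10 was called in LG_eTconv. Below Spl_CD4 were 9 in LG_eTreg (median -3.58), 8 in LG_eTconv (median -2.88) and 8 in LG_naive (median -2.72), and Pax5 was at background in all groups. The 13 fibroblast, endothelium and erythrocyte markers summed to 32.0 to 49.0 in LG_eTreg, 42.0 to 70.4 in LG_eTconv and 85.9 to 103.9 in LG_naive, against 505.6 on Spl_CD4 and 442.4 on Spl_CD8, with Col1a2 and Pdgfra at background in all groups. In summed signal, the spleen arrays thus exceeded every gland array for both lists. Of the 13 fibroblast, endothelium and erythrocyte markers, however, 8 were at background on Spl_CD4. Relative to Spl_CD4, 4 of them were higher and 2 lower in LG_naive (median 0.26). With dim values raised to their limit, 1 was higher and 2 were lower there. In LG_eTconv and in LG_eTreg, 0 were higher and 4 lower (medians 0.10 and 0.02). The 10 CD8 T and natural killer cell markers summed to 84.5 to 92.9 in LG_eTreg, 118.9 to 171.8 in LG_eTconv and 167.5 to 171.0 in LG_naive, against 134.2 on Spl_CD4 and 1520.6 on Spl_CD8, with Ncr1 and Klra8 at background in all groups. In sorted bulk samples, fewer cells of a type and less RNA per cell cannot be told apart.

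The genes most like Fos over the arrays, among 7265 that varied and were above background, were Sik1, Errfi1 and Fosl2, each with a Pearson r of 0.99 over 11 arrays. Those most like Nr4a1 were Errfi1, Sik1 and Fos, each with an r of 0.97. The gland and spleen arrays form separate clusters for these genes, so these values mainly describe the step between gland and spleen. Over the 9 gland arrays alone, r with Fos was 0.79 for Sik1, 0.13 for Errfi1 and -0.30 for Fosl2, and r with Nr4a1 was 0.68 for Errfi1 and 0.28 for Sik1. Egr2 was most like Btg3, Ptprs and Spred2 (r of 0.96, 0.95 and 0.94 over 11 arrays), and these stayed near it over the gland arrays alone, at 0.89, 0.85 and 0.90. Arrays of a group share their gate and any contaminating cells, so these values are descriptions.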

How the data were processed

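RNA from 11 samples was hybridised to perfect-match probe set arrays, 1 array a sample. The authors deposited log2 signals. Per the submitters' processing notes these come from RMA run in Partek, with versions not given in the sources used here, and the log base is inferred from RMA. Array values carry no counts, and the number of arrays limits the precision.

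After 104 control probe sets were left out, 45037 remained, of which 28898 had exactly 1 gene symbol in the platform annotation. For each of 17097 genes the probe set brightest on average over the 9 gland arrays was used, with no filter on dim genes. The background limit of an array, its highest nonspecific control, was 0.945 to 1.70. Group means over the 9 gland arrays were compared with limma 3.58.1 in R 4.3.3 (two-sided tests, empirical Bayes). Genes passed at an adjusted p under 0.05 over the whole table. Comparisons with the single spleen arrays have no test. The method was tested on simulated data.

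The members, gene lists, marker lists and naming rule were chosen with earlier results of these data known. Some lists share genes, so a gene can count in more than 1 list. Named list genes were up to 4 called genes of a list with the largest change in each gland comparison; exceptions are marked where they stand. For the likeness to Fos, Egr2 and Nr4a1, genes with a range of at least 1 and a signal above the limit on at least 3 arrays were ranked by Pearson r. The numbers of the replicates were not used as pairs: of 9 same-numbered pairs of arrays, 3 deviated together with a correlation above 0.1 (range -0.10 to 0.28). Alternatives covered the choice of probe set, a filter and a floor for dim values, scaling, the empirical Bayes settings, the arrays in the fit, a replicate block and each array left out.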

Additional observations from a re-analysis of the deposited data

Results flagged for a closer look

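Egr1 was picked out because the effector subsets differed in their distance from LG_naive. The value that picked it out was its log2 difference in LG_eTreg minus LG_eTconv, the same result as given above and no separate support. That difference was 0.51 (SE 0.10, adjusted p = 0.0196, limma), with 9.52 ± 0.07 in LG_eTreg and 9.01 ± 0.07 in LG_eTconv (log2 signal, SD, n = 3 each). Egr1 was higher in 3 of 3 LG_eTreg arrays than in any LG_eTconv array. The differences from LG_naive were -0.03 in LG_eTreg and -0.54 in LG_eTconv, and share the LG_naive arrays. Over the alternatives, the adjusted p of the direct difference ran from 0.00224 to 0.131 (limma).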

How the results depend on the processing

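Each gland comparison was rerun under 19 alternatives. Of 570 differences of the 10 genes, 551 kept their side of the threshold, 11 lost a call, 8 gained one and 0 called differences changed sign. The rises of Nr4a2 and the fall of Jun in LG_eTreg held in all 19, with adjusted p up to 0.00456 for Nr4a2 and 0.0229 for Jun (limma). Genes higher in LG_eTconv than in LG_naive numbered 2 in place of 1 with trend and robust empirical Bayes, with quantile normalization and without the 3 arrays with control probe sets apart, where Egr2 was added (adjusted p of 0.0472, 0.0416 and 0.0449, limma). Without those 3 arrays the genes lower in LG_eTconv numbered 1 and those higher in LG_eTreg than in LG_eTconv 0, as Egr1 was lost. With dim values raised to the highest background limit, the genes lower in LG_eTconv than in LG_naive numbered 3 in place of 2, as Junb was added (adjusted p = 0.0368, limma). Trend and robust empirical Bayes called 1 gene, Fosb, lower in LG_eTreg than in LG_eTconv (adjusted p = 0.0401, limma). With each array left out in turn, the counts ran from 1 to 2 for genes higher and from 1 to 2 for genes lower in LG_eTconv than in LG_naive, and from 0 to 1 for genes higher and from 0 to 1 for genes lower in LG_eTreg than in LG_eTconv. Leaving out an array also leaves fewer samples, and the cause of these shifts was not tested. Against Spl_CD4, the counts of higher genes stayed at 7 or 8 and those of lower genes at 0 in each alternative run; the counts against Spl_CD8 were not rerun. With the replicate block, the counts were 1 higher and 2 lower in LG_eTconv minus LG_naive, 1 and 1 in LG_eTreg minus LG_naive, and 1 and 0 in LG_eTreg minus LG_eTconv, so the block changed no call; 3 of 9 arrays correlated best with their own number in both other groups, and the numbers were not taken to pair the samples. Signals near the background limit, as for Egr3 and Fosb in spleen and for Nr4a2 and Junb on Spl_CD4, give no order.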

Other observations

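Genes linked in other work to EGR2 and EGR3 in T cells rose more often than they fell in the effector subsets, where Egr2 itself was not called and Egr3 was near background. Of 18 measured, 9 rose and 0 fell in LG_eTconv relative to LG_naive (median 0.39), and 6 rose and 1 fell in LG_eTreg (median 0.27), beside medians of -0.03 and -0.02 over all genes. The shares of all genes that rose and fell were 6.45% and 7.02% in LG_eTconv and 6.2% and 5.47% in LG_eTreg. Nrgn, a calmodulin-binding protein gene, averaged 2.13 ± 0.12 in LG_eTreg and 5.50 ± 0.26 in LG_eTconv, and Rnf128 (GRAIL), an anergy-linked ubiquitin ligase gene, 5.94 ± 0.22 in LG_eTreg and 8.04 ± 0.19 in LG_eTconv (log2 signal, SD, n = 3 each). Both fell in LG_eTreg relative to LG_eTconv, with differences of -3.37 and -2.10 (adjusted p of 6.68e-06 and 8.33e-05, limma). Cdkn1a, the cell cycle inhibitor p21, rose by 2.72 in LG_eTreg relative to LG_eTconv (adjusted p = 1.28e-05, limma).

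Of 9 genes linked to NR4A factors in T cells, 5 rose and 1 fell in LG_eTconv relative to LG_naive (median 0.57, beside 6.45% and 7.02% of all genes). In LG_eTreg 6 rose and 1 fell (median 1.95, beside 6.2% and 5.47%). As chosen, this list shares Lag3 and Bcl6 with the list linked to EGR2 and EGR3. Relative to LG_eTconv, 4 rose and 0 fell in LG_eTreg (median 1.0, against 0.01 over all genes), where 2.94% of all genes rose and 2.76% fell. Those that rose were Foxp3, Havcr2, Cd244a and Entpd1, while Nr4a2 differed by -0.01 in this comparison. The largest change in LG_eTconv relative to LG_naive was a fall, in Cd244a, with a difference of -4.06 (adjusted p = 0.000426, limma). The inhibitory receptor gene Lag3 rose by 3.75 in LG_eTconv and 4.04 in LG_eTreg relative to LG_naive, and Ikzf2 (Helios) by 2.70 and 3.72 (adjusted p up to 0.000383, limma). Foxp3 and Havcr2 (TIM-3) rose by 3.94 and 3.15 in LG_eTreg relative to LG_eTconv (adjusted p of 0.00207 and 0.00145, limma). Havcr2 was not above background on 1 of 3 LG_eTconv arrays, and with that array raised to its limit the difference was 2.82. Foxp3 is also the defining gene of regulatory T cells, so its rise is not independent of the subset label, nor is the count that includes it. Whether the other rises reflect NR4A factors or the subset was not tested.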
